A study of Mus musculus with 15 samples.

Results

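The genes described here encode enzymes that write, copy or remove DNA methylation and proteins that assist them. These genes are *Tet1*, *Tet2*, *Tet3*, *Dnmt1*, *Dnmt3a*, *Dnmt3b*, *Dnmt3l*, *Uhrf1* and *Tdg*. They were chosen by name, and 9 of 9 were found, each as 1 transcript, among the 21727 transcripts of the count table. Ribosome-protected fragments (RPFs) were measured in E14Tg2a.4 mouse embryonic stem cells (mESCs) grown on gelatin with serum and leukemia inhibitory factor. A 3xFLAG tag had been inserted homozygously at the C-terminus of endogenous *Rps27* (*Rps27-FLAG*, written eS27-FLAG in the labels) or of its paralog *Rps27l* (*Rps27l-FLAG*), and the wild-type (WT) cells carried no tag. No gene was knocked out for this experiment in any of the 3 lines, and all cells were treated with cycloheximide before lysis. Each line was represented by 3 clones, 2b12, 2c3 and 2c4 for *Rps27-FLAG*, 4a2, 4a3 and 4b7 for *Rps27l-FLAG* and 5a1, 5a2 and 5a3 for WT, which carry the replicate numbers 1, 2 and 3 and the prefixes L1, L2 and L3 in that order. RPFs of 1 replicate number were pooled for library preparation, and these sets are called pools L1, L2 and L3. RPFs of all ribosomes (total RPFs) came from the 9 clones, and RPFs of anti-FLAG immunoprecipitated ribosomes (IP RPFs) came from the 6 tagged clones, giving 15 libraries of 3972152 to 8064166 counts. Within a line each clone lies in a pool of its own, so that p-values of fits without a block measure the spread between clones and pools together. With the pool as a block they measure the spread left once pool levels are removed. With the clone as a block they measure the spread of the difference between IP and total RPFs over the clones.

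In mammals, DNMT3A and DNMT3B methylate cytosines of unmethylated CpG sites, and DNMT3L, which has no catalytic activity of its own, assists them in germ cells and in stem cells of the early embryo. DNMT1 copies methylation to the new strand after replication, and UHRF1 recognises the half-finished site and brings DNMT1 to it. TET1, TET2 and TET3 oxidise 5-methylcytosine, and TDG excises the further oxidised bases so that base excision repair can put back an unmodified cytosine. Pluripotent mouse cells are known for high *Tet1* and *Tet2*, for little *Tet3* and for abundant *Dnmt3l*.

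Only fragments that aligned to 1 place in the transcriptome were counted, which matters where a listed gene has a near-identical copy. Every 28-base window of each coding sequence (CDS) was therefore searched among all listed transcripts. No window of *Tet1*, *Tet2*, *Tet3*, *Dnmt1*, *Dnmt3a*, *Dnmt3l* or *Uhrf1* occurred in another listed transcript. In the counted part of the *Tdg* CDS 73.9% of windows were shared with its processed copy *Tdg-ps*, and in that of *Dnmt3b* 28.6% were shared with its tandem duplicate *Dnmt3c*. A shared and a distinguishable window of each gene show how close the copies are, with the differing bases in capitals (GENCODE M21 transcripts on GRCm38, + strand, 5′ to 3′).

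*Tdg* and *Tdg-ps*, shared, chr10:82644265-82644292: atggtggaacggacgacgccgggcagca
*Tdg*, not shared, chr10:82647297-82647324: attaagctgaaggacttgagagaccaAc
*Tdg-ps*, the matching window: attaagctgaaggacttgagagaccaGc
*Dnmt3b* and *Dnmt3c*, shared, chr2:153675007-153675034: aagacttcttcactactgatcctgacct
*Dnmt3b*, not shared, chr2:153669794-153669821: TtaATctggcTAccttcAataaGctggt
*Dnmt3c*, the matching window: GtaTCctggcCGccttcTataaActggt

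The *Tdg* window differs from its copy by A27G, counted from 1 at the 5′ end of the window, and the *Dnmt3b* window by 7 substitutions. *Tdg* and *Dnmt3b* counts thus cover part of each CDS, and their levels are lower bounds. *Tdg-ps* had 0 counts in every library and *Dnmt3c* had 12 in all 15 libraries together.

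The largest difference among the clones was in *Tet1* (ENSMUST00000174189, chr10:62804577-62899118, − strand, GRCm38, CDS of 6120 nt). This difference named the 4 low clones and is described without a test. Levels are given as normalized CPM, which is the CPM of the library size after scaling by TMM. Among the *Rps27-FLAG* clones, *Tet1* total RPFs were at 2.43 normalized CPM (19 counts) in 2b12, 423 (2973 counts) in 2c3 and 417 (2534 counts) in 2c4. Among the *Rps27l-FLAG* clones they were at 1.95 (15 counts) in 4a2, 2.10 (17 counts) in 4a3 and 422 (2668 counts) in 4b7. In the WT clones they were at 3.08 (22 counts) in 5a1, 428 (3221 counts) in 5a2 and 431 (2888 counts) in 5a3. The 9 clones thus fell into 4 with nearly no *Tet1* footprints and 5 within 417 to 431 normalized CPM, with nothing between them. The low clones were 1 of 3 in *Rps27-FLAG*, 2 of 3 in *Rps27l-FLAG* and 1 of 3 in WT. They made up the 3 clones of pool L1 and 4a3 of pool L2, while 2c3 and 5a2 of pool L2 were high. The part of the pool in the *Tet1* difference was not tested.

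The IP RPFs, which were prepared from the same lysates, gave the same division. *Tet1* was at 325, 308 and 324 normalized CPM in the IP RPFs of 2c3, 2c4 and 4b7, and at 3.90 in 2b12, 2.12 in 4a2 and 9.67 in 4a3. The 95% exact Poisson interval in the IP library of 4a3 (43 counts), 7.00 to 13.0, lay above that in its total library, 1.22 to 3.36, and these intervals cover counting error only. In bulk cells, a lower share of cells with *Tet1* and less *Tet1* per cell cannot be told apart. RPFs alone also do not separate the abundance of an mRNA from the number of ribosomes on it.

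**Figure D1:**
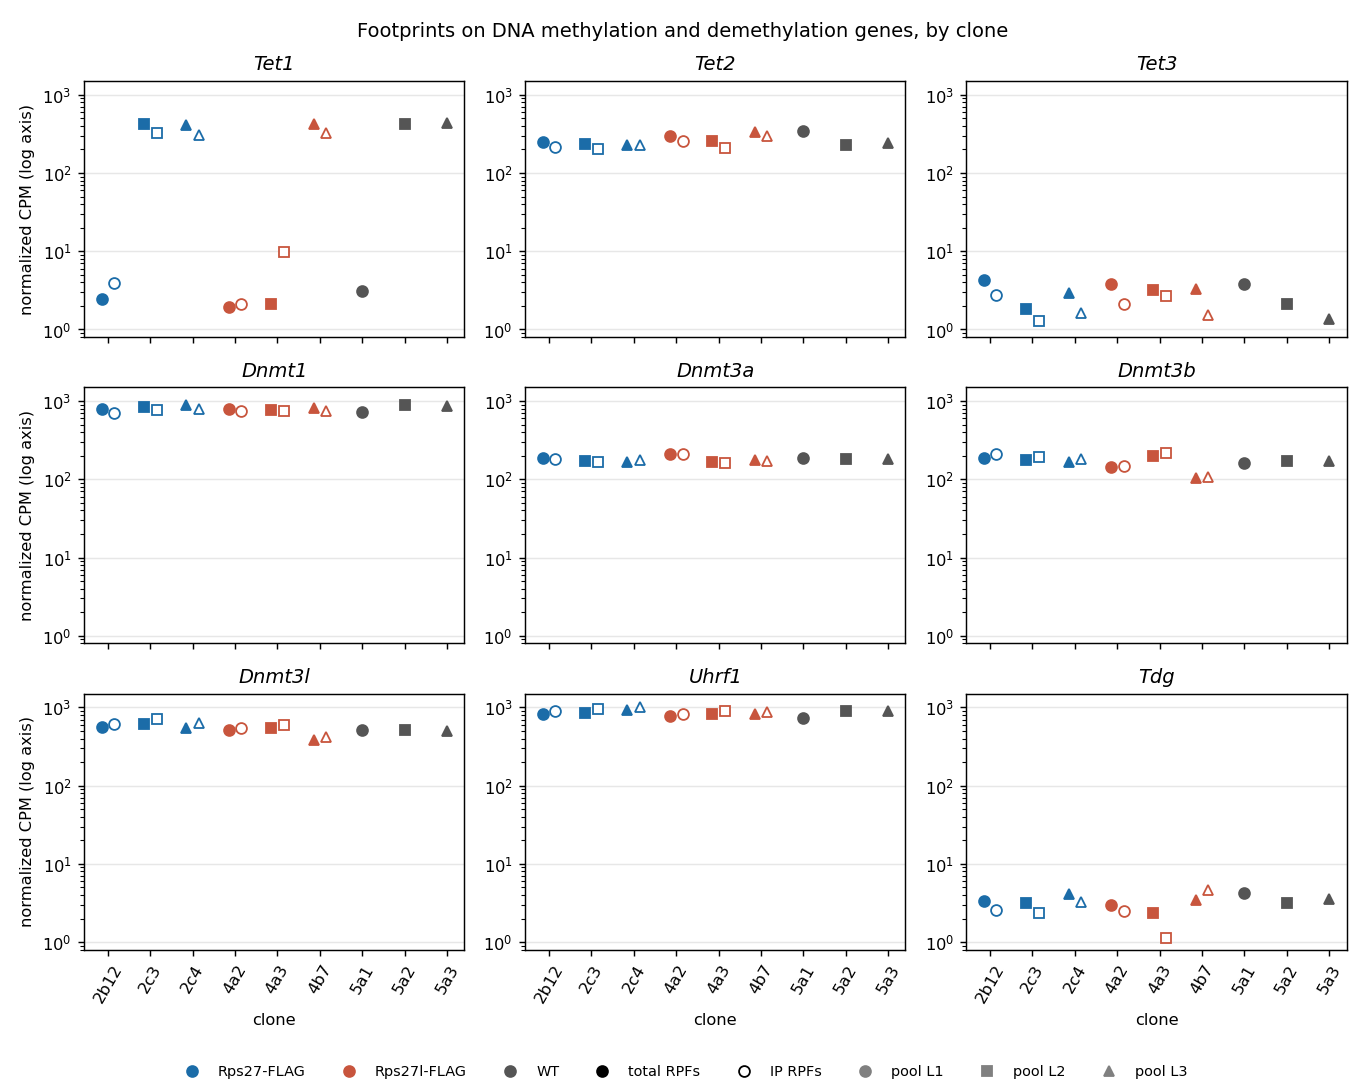
Normalized CPM (log axis) of the 9 genes by clone, with total RPFs as filled symbols and IP RPFs as open symbols, colours for lines and shapes for pools. *Tet1* is near 2 to 10 in clones 2b12, 4a2, 4a3 and 5a1 and above 300 in the other 5 clones, whereas each of *Tet2*, *Dnmt1*, *Dnmt3a*, *Dnmt3b*, *Dnmt3l* and *Uhrf1* stays within 1 band in all 15 libraries.

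All 15 libraries carried the markers of pluripotent cells, and the low sums of some other markers differed between the low-*Tet1* clones and the others. The 8 pluripotency markers (among them *Pou5f1*, *Nanog* and *Zfp42*) all passed the filter on low counts and summed to 3369 to 4071 normalized CPM. In total RPFs they summed to 3432 to 3592 in the 4 low-*Tet1* clones and to 3369 to 3710 in the other 5. The 4 trophoblast markers summed to 21.2 to 27.97 normalized CPM in the total RPFs of the low-*Tet1* clones and 8.101 to 9.80 in the others. *Eomes* was the 1 trophoblast marker past the filter, at 6.82 to 27.6 in total RPFs. *Elf5* did not exceed 0.177 and *Cdx2* 1.42 in any library. The 6 primitive endoderm markers, 0 of which passed the filter, summed to 15.2 to 26.6 beside 5.45 to 12.3, with *Foxa2* at no more than 0.740. The 5 fibroblast markers summed to 23.3 to 30.7 beside 11.02 to 16.6, with *Thy1* the only one past the filter and *Col3a1* and *Twist2* at no more than 0.658 and 0.450. The 4 formative markers, 3 of which passed, summed to 81.4 to 134 beside 62.9 to 146. The trophoblast, primitive endoderm and fibroblast sums did not overlap between the low-*Tet1* clones and the others. The same held for 23.1% of the single transcripts tested below. The part of other cell states in the *Tet1* difference was not tested.

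The other genes were then read in the same clones, the 4 low-*Tet1* clones beside the other 5, as a description with no test. *Dnmt1* total RPFs were at 788 in 2b12, 785 in 4a2, 778 in 4a3 and 736 in 5a1, and in the others at 851 in 2c3, 880 in 2c4, 828 in 4b7, 897 in 5a2 and 863 in 5a3. *Uhrf1* total RPFs were at 831, 772, 831 and 742 in 2b12, 4a2, 4a3 and 5a1, and at 857, 935, 836, 910 and 894 in 2c3, 2c4, 4b7, 5a2 and 5a3. For these 2 maintenance genes the 4 clones were the 4 lowest of the 9, by small margins. The same absence of overlap, in either direction, held for 23.1% of the 10085 transcripts tested below, and all 4 clones were lowest for 11.3% of them, so that 2 of the 7 tested genes other than *Tet1* is near what the table as a whole showed. In the IP RPFs, *Dnmt1* was at 708 to 739 in the 3 low-*Tet1* tagged clones and at 749 to 784 in the other 3, again without overlap, as for 30.8% of tested transcripts, whereas *Uhrf1* overlapped, at 815 to 913 and 884 to 1027.

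*Tet2* total RPFs spanned 247 to 340 normalized CPM in the 4 low-*Tet1* clones and 227 to 333 in the other 5, with 5a1 and 4b7 the highest of each set. *Tet3* total RPFs had 9 to 34 counts a clone, at 3.21 to 4.34 normalized CPM in the 4 clones and 1.34 to 3.32 in the others. The *Tet3* sets overlapped in total RPFs, and the Poisson intervals of single clones were wide, from 3.01 to 6.07 for the highest (2b12) and from 0.615 to 2.55 for the lowest (5a3). In the IP RPFs the *Tet3* sets did not overlap, at 2.12 to 2.74 (12 to 19 counts) in the 3 low-*Tet1* clones and 1.27 to 1.61 (6 to 7 counts) in the other 3, with overlapping Poisson intervals. The same absence of overlap held for 30.8% of the tested transcripts, which do not include *Tet3*. The de novo factors overlapped between the sets in total RPFs. *Dnmt3a* was at 168 to 212 beside 167 to 183, *Dnmt3b* at 146 to 200 beside 104 to 175 and *Dnmt3l* at 508 to 559 beside 379 to 620. *Tdg*, with 19 to 30 counts a clone, was at 2.34 to 4.2 beside 3.13 to 4.11.

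The other *Tet* transcripts lie at chr3:133463679-133544390 (*Tet2*, − strand) and chr6:83368042-83456392 (*Tet3*, − strand) of GRCm38. The maintenance genes lie at chr9:20907209-20952979 (*Dnmt1*, − strand) and chr17:56303321-56323486 (*Uhrf1*, + strand). The de novo genes lie at chr12:3807030-3914443 (*Dnmt3a*), chr2:153649450-153687730 (*Dnmt3b*) and chr10:78042287-78063622 (*Dnmt3l*), and *Tdg* at chr10:82629859-82650799, all on the + strand. Levels of different genes were compared per kb of counted CDS, as the median of normalized CPM per kb over the 9 total RPF libraries. *Dnmt3l* was highest at 430 (range 314 to 514), followed by *Uhrf1* at 365 (324 to 408), and their ranges overlapped. *Dnmt1* followed at 172 (153 to 187), apart from its neighbours on both sides. *Dnmt3b* at 68.7 (41.2 to 79.4, a lower bound) and *Dnmt3a* at 68.2 (62.5 to 79.3) could not be ordered, and the 5 clones with *Tet1* lay at 68.8 to 71.2, inside both ranges. *Tet2* was at 43.6 (39.9 to 59.8), overlapping *Dnmt3b* but below every *Dnmt3a* value. *Tdg* was at 2.75 (1.94 to 3.48, a lower bound), and *Tet3* was lowest at 0.599 (0.251 to 0.811). *Tet1* in the 4 low clones, at 0.322 to 0.508, was within the *Tet3* range. The median tested transcript was at 25.3 on the same scale.

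**Figure D2:**
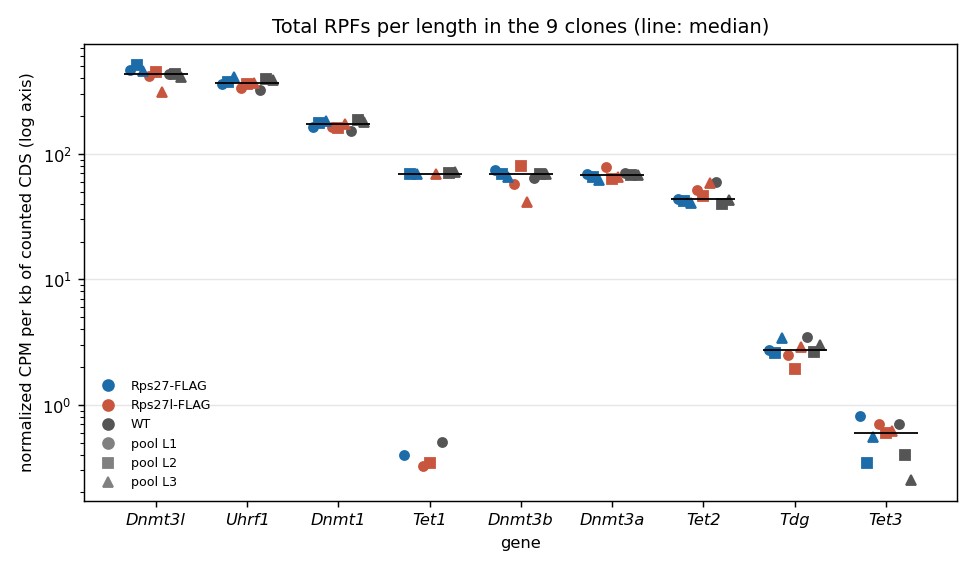
Normalized CPM per kb of counted CDS (log axis) in the total RPFs of the 9 clones for each gene, with colours for lines, shapes for pools and a line at the median. *Dnmt3l* and *Uhrf1* lie at 314 to 514, *Tet1* of 5 clones lies beside *Dnmt3a* and *Dnmt3b* near 69, and *Tet1* of the other 4 clones lies among the *Tet3* values below 1.

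The clones differed least in *Dnmt1*, *Dnmt3a* and *Uhrf1*, whose log2 levels had SDs of 0.10, 0.10 and 0.11 over the 9 clones, below the 0.16 of the median tested transcript. *Dnmt3l* (0.19), *Tet2* (0.22) and *Dnmt3b* (0.27) varied more. Clone 4b7 stood lowest for *Dnmt3b* and *Dnmt3l*, but not for *Dnmt3a*, at 176 beside 167 in 2c4. *Dnmt3b* total RPFs were at 104 normalized CPM in 4b7 and at no less than 146 in any other clone, and *Dnmt3l* at 379 in 4b7 and no less than 498 elsewhere. The IP library of 4b7 was also the lowest of 6, with *Dnmt3b* at 107 and *Dnmt3l* at 414. In total RPFs, 4b7 also had the lowest sum of formative markers (62.9, the next being 81.4) and the highest of pluripotency markers (3710, the next being 3597), and the part of these in the *Dnmt3b* and *Dnmt3l* levels was not tested.

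By a rule that ranked 11226 nuclear transcripts, the pattern most like *Tet1* over the 9 total RPF libraries was that of *Pax6*, followed by *Ccnd2*, *Mpi*, *Spink1* and *Tmem92*. Likeness was the root mean square difference from *Tet1* in log2(normalized CPM + 0.5), each transcript centred on its own mean, and was 2.00, 2.14, 2.28, 2.37 and 2.54 for these 5. Its median over all ranked transcripts was 3.59, so that the 5 followed *Tet1* in part. *Pax6*, a transcription factor of eye and neural development, was at 1.92, 0.781, 1.11 and 1.54 normalized CPM in 2b12, 4a2, 4a3 and 5a1, and at 11.4 to 19.6 in the other 5 clones. *Ccnd2*, which encodes cyclin D2, was at 4.32 to 7.14 in the 4 clones and at 33.5 to 69.6 in the others. *Mpi*, which encodes mannose phosphate isomerase, was at 2.3, 2.22 and 1.54 in 2b12, 4a3 and 5a1 but at 18.1 in 4a2, against 28.1 to 40.6 in the others. *Spink1*, a secreted protease inhibitor, lay at 2.34 to 3.22 and at 10.3 to 21.3, and *Tmem92*, which encodes a transmembrane protein, at 2.47 to 3.36 and 9.10 to 24.5. *Mpi* in 4a2 was thus the exception among these transcripts.

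Whether the tag itself went with other levels was asked by comparing total RPFs of the 3 lines in pairs, with edgeR's quasi-likelihood test and Benjamini-Hochberg adjustment over the 10085 nuclear transcripts that passed a filter on low counts (CPM over 2 in 14 or more libraries). Of the 9 genes 8 passed this filter, and *Tet3* did not. Without *Tet1*, 0 of the 7 other tested genes was called in any pair at an adjusted p under 0.05, against 0% of all tested transcripts. The log2 fold changes lay between -0.18 and 0.17 for *Rps27-FLAG* against WT, between -0.33 and 0.13 for *Rps27l-FLAG* against WT and between -0.28 and 0.31 for *Rps27l-FLAG* against *Rps27-FLAG*. An unadjusted p under 0.05 was found for 0, 0 and 1 of the genes in these pairs, against 2.92%, 5.69% and 5.75% of all transcripts. The counts of called genes were also 0 in each pair with voom and limma, with DESeq2 and with the pool as a block, the last against 0.00992%, 1.43% and 1.36% of transcripts.

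*Dnmt3l* and *Tet2* came nearest to a difference, both between the tagged lines (they are named here after their values were seen). *Dnmt3l* total RPFs were at 559, 620 and 551 normalized CPM in the *Rps27-FLAG* clones 2b12, 2c3 and 2c4, at 508, 541 and 379 in 4a2, 4a3 and 4b7 of *Rps27l-FLAG*, and at 519, 519 and 498 in the WT clones 5a1, 5a2 and 5a3. Each *Rps27-FLAG* clone was above every clone of the other lines, and 4b7 was apart from the rest. The log2 fold change of *Rps27l-FLAG* against *Rps27-FLAG* was -0.28 (SE 0.11, adjusted p = 0.803 by edgeR). With the pool as a block it was -0.29 (SE 0.075, adjusted p = 0.0887), and the differences within pools L1, L2 and L3 were -0.14, -0.20 and -0.54. Without 4b7 the fold change of the first fit was -0.1368 (adjusted p = 0.568).

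*Tet2* total RPFs were at 247, 237 and 230 in 2b12, 2c3 and 2c4, at 294, 260 and 333 in 4a2, 4a3 and 4b7, and at 340, 227 and 243 in 5a1, 5a2 and 5a3. The tagged lines did not overlap, whereas the WT clones spanned both. The log2 fold change between the tagged lines was 0.31 (SE 0.14, adjusted p = 0.803 by edgeR), and 0.31 with the pool as a block (SE 0.10, adjusted p = 0.17). The tagged lines did not overlap in 11.5% of all tested transcripts, *Rps27-FLAG* and WT in 8.52% and *Rps27l-FLAG* and WT in 9.65%, and of the 7 genes *Dnmt3l* alone did not overlap between a tagged line and WT. *Dnmt3b* (mean ± SD over 3 clones) averaged 149.9 ± 48.2 in *Rps27l-FLAG*, where 4b7 and 4a3 were the lowest and highest of all clones, 176 ± 10.2 in *Rps27-FLAG* and 169.6 ± 6.76 in WT.

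**Figure D3:**
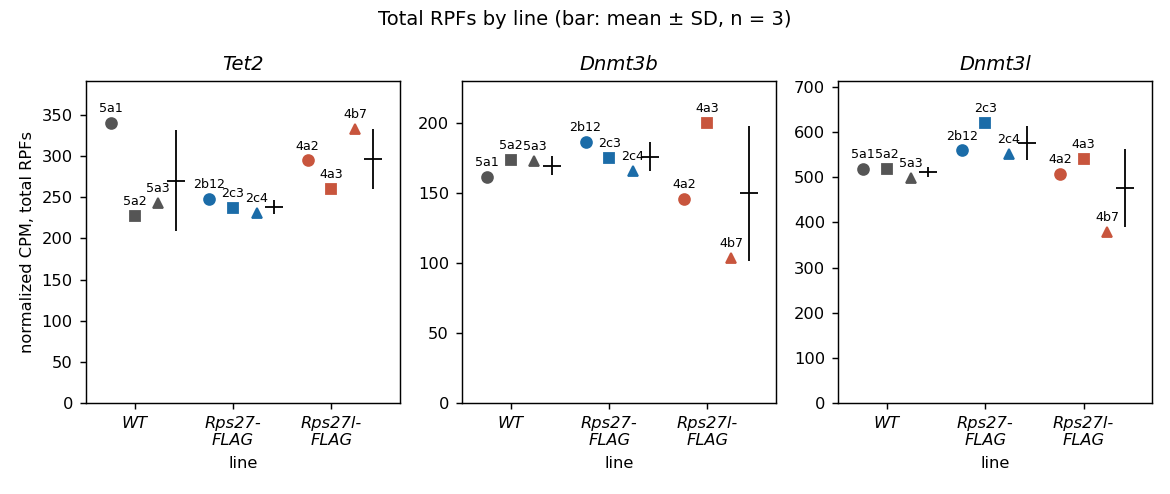
Normalized CPM (linear axis from 0) of *Tet2*, *Dnmt3b* and *Dnmt3l* in the total RPFs of each clone by line, with shapes for pools and bars for mean ± SD (n = 3). *Dnmt3l* is higher in the 3 *Rps27-FLAG* clones (551 to 620) than in every other clone, and 4b7 is lowest for *Dnmt3b* (104) and *Dnmt3l* (379).

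The association of the genes with Rps27- and Rps27l-ribosomes was asked for each tagged line by setting IP RPFs against total RPFs. In the fit without a clone term 0 of 8 tested genes was called in either line, against 5.67% of transcripts in *Rps27-FLAG* and 3.1% in *Rps27l-FLAG*. An unadjusted p under 0.05 was found for 0 and 1 of the 8 (*Dnmt1*), against 22.1% and 17.4% of transcripts, and voom and limma and DESeq2 also called 0. Both libraries of a clone came from 1 lysate, and with the clone as a block 6 of 8 genes were called in *Rps27-FLAG*, against 41.2% of transcripts, and 5 of 8 in *Rps27l-FLAG*, against 31% of transcripts. In *Rps27-FLAG*, IP RPFs of 3 of the 8 were higher and of 3 lower, against 18.3% and 22.9% of transcripts, and in *Rps27l-FLAG* 2 were higher and 3 lower, against 12% and 19%.

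*Dnmt3l*, *Dnmt3b* and *Uhrf1* were slightly higher in the IP RPFs. *Dnmt3l* had log2 IP/total ratios of 0.12, 0.19 and 0.20 in 2b12, 2c3 and 2c4 and of 0.085, 0.13 and 0.13 in 4a2, 4a3 and 4b7. *Uhrf1* had ratios of 0.10, 0.14 and 0.14 and of 0.079, 0.14 and 0.081 in the same order. *Dnmt3b* had ratios of 0.15, 0.14 and 0.14 and of 0.020, 0.10 and 0.038. All 3 genes were thus above 0 in 6 of 6 clones, as were 16.2% of tested transcripts. With the clone as a block, *Dnmt3l* rose by a log2 fold change of 0.17 (SE 0.030, adjusted p = 2.11e-07 by edgeR) in the *Rps27-FLAG* IP RPFs and by 0.11 (SE 0.029, adjusted p = 0.00163) in the *Rps27l-FLAG* IP RPFs. *Uhrf1* rose by 0.13 (adjusted p = 0.000122) and 0.10 (adjusted p = 0.00283). *Dnmt3b* rose in *Rps27-FLAG*, by 0.15 (adjusted p = 0.000161), and was at 0.06 (adjusted p = 0.278) in *Rps27l-FLAG*. *Dnmt3a* was near 0 in both lines, at -0.01 (adjusted p = 0.809) and -0.02 (adjusted p = 0.774).

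*Dnmt1* and *Tet2* were slightly lower in the IP RPFs, and this direction turned when a trend with CDS length was removed. *Dnmt1* had log2 IP/total ratios of -0.15, -0.12 and -0.17 in 2b12, 2c3 and 2c4 and of -0.091, -0.076 and -0.14 in 4a2, 4a3 and 4b7. *Tet2* had ratios of -0.18, -0.22 and -0.0088 and of -0.19, -0.33 and -0.15. Both were below 0 in 6 of 6 clones, as were 22.8% of tested transcripts. With the clone as a block, *Dnmt1* fell by a log2 fold change of 0.15 (SE 0.030, adjusted p = 5.23e-06 by edgeR) in *Rps27-FLAG* and by 0.10 (SE 0.027, adjusted p = 0.00221) in *Rps27l-FLAG*. *Tet2* fell by 0.15 (SE 0.034, adjusted p = 9.74e-05) and by 0.22 (SE 0.034, adjusted p = 1.84e-07). Leaving out 4b7 ended the *Dnmt1* call in *Rps27l-FLAG*, with 4 of 8 genes called, among them *Tet1* with its sign turned.

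The genes that were called lower had the longest coding sequences of the tested genes. The CDSs of *Tet1*, *Tet2* and *Dnmt1* have 6120, 5739 and 4863 nt, whereas those of *Dnmt3b*, *Uhrf1* and *Dnmt3l* have 2580, 2349 and 1266 nt. *Tdg*, also with 1266 nt, had ratios below 0 in 5 of 6 clones but few counts, and was not called. With the clone as a block and the CDS length trend of each library removed by loess, *Dnmt1* was higher in the IP RPFs, by 0.16 (adjusted p = 2.24e-06) in *Rps27-FLAG* and 0.15 (adjusted p = 3.05e-05) in *Rps27l-FLAG*. *Tet2* was then higher by 0.21 (adjusted p = 2.88e-08) in *Rps27-FLAG* and at 0.06 (adjusted p = 0.211) in *Rps27l-FLAG*. *Dnmt3a* was also called in that fit, at 0.16 (adjusted p = 9.71e-05) and 0.13 (adjusted p = 0.00456). *Uhrf1*, *Dnmt3b* and *Dnmt3l* stayed higher, at 0.26, 0.31 and 0.19 in *Rps27-FLAG* and at 0.22, 0.20 and 0.14 in *Rps27l-FLAG*. That fit called 31.4% of transcripts in *Rps27-FLAG*, 18.4% higher and 13% lower, and 6 of the 8 genes higher and 0 lower. In *Rps27l-FLAG* it called 22.7%, 14.7% higher and 8.04% lower, and 5 of the 8 genes higher and 0 lower.

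**Figure D4:**
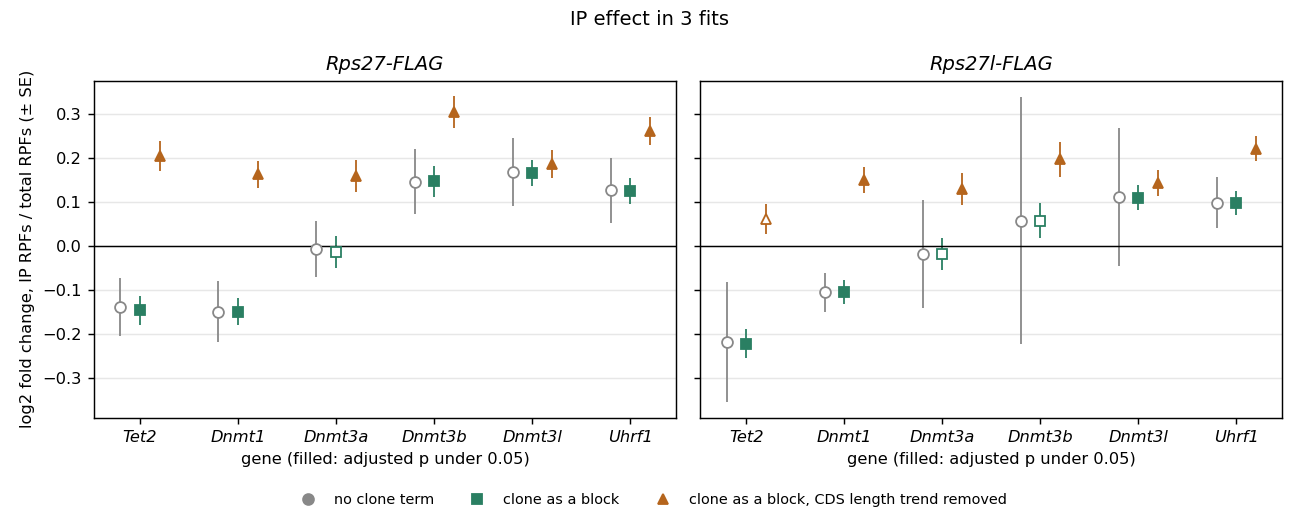
Log2 fold change of IP RPFs against total RPFs (± SE) of 6 genes in each tagged line in 3 fits, without a clone term (circles), with the clone as a block (squares) and with the CDS length trend also removed (triangles), with filled symbols for an adjusted p under 0.05. *Dnmt3b*, *Dnmt3l* and *Uhrf1* are above 0 in each fit, whereas *Tet2* and *Dnmt1* are below 0 in 2 fits and above 0 once the length trend is removed.

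*Tet1* in the IP RPFs can be read in the 3 tagged clones that had it. Its log2 IP/total ratios were -0.38 in 2c3, -0.44 in 2c4 and -0.38 in 4b7. In the other clones the ratios rested on 12 to 43 counts a library and were 0.67 in 2b12, 0.13 in 4a2 and 2.18 in 4a3. With the clone as a block, *Tet1* fell by a log2 fold change of 0.40 (SE 0.036, adjusted p = 1.51e-26 by edgeR) in *Rps27-FLAG* and by 0.33 (SE 0.066, adjusted p = 4.49e-05) in *Rps27l-FLAG*. The second value rested on 4b7, without which it turned to 1.504 (adjusted p = 6.66e-05). With the length trend removed the values were -0.03 in both lines (adjusted p = 0.558 and 0.792). *Tet3*, which was not tested, had 6 to 19 counts in the IP libraries and ratios of -1.03 to -0.22, and *Tdg*, with 5 to 18 counts, ratios of -0.96 to 0.41.

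**Figure D5:**
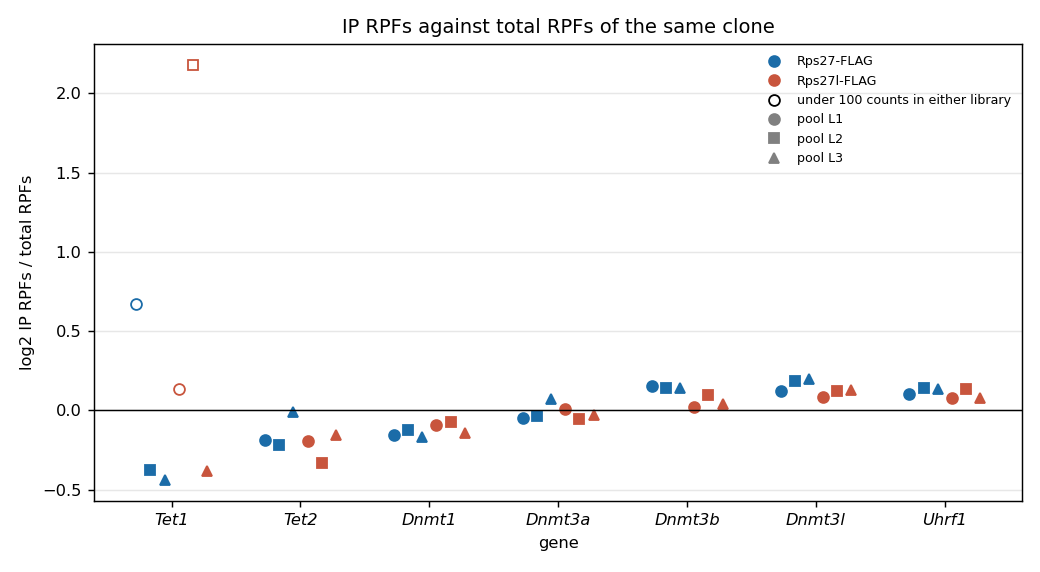
Log2 ratio of IP RPFs over total RPFs in each of the 6 tagged clones for 7 genes, with colours for lines, shapes for pools and open symbols where either library has under 100 counts. The ratios of *Dnmt3b*, *Dnmt3l* and *Uhrf1* are above 0 and those of *Tet2* and *Dnmt1* below 0 in all 6 clones, and *Tet1* lies near -0.4 in the 3 clones with ample counts. The signs of *Tet2* and *Dnmt1* turned when the CDS length trend was removed from the fit.

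Whether the association differed between Rps27- and Rps27l-ribosomes was tested as the difference of the IP effects of the tagged lines, in 1 fit of 12 libraries with the clone as a block. In that fit 0 of 8 genes had an adjusted p under 0.05 and a log2 fold change beyond 0.25 in size, against 0.565% of transcripts, and 0 of 8 had an unadjusted p under 0.05, against 12.1%. With voom and limma and with DESeq2 the count was also 0. With the CDS length trend removed 0 of 8 were called too (lowest adjusted p = 0.118 by edgeR). In that fit 2 of 8 had an unadjusted p under 0.05, for which the share of all transcripts was not computed. The differences of the first fit (*Rps27l-FLAG* minus *Rps27-FLAG*) lay between -0.09 for *Dnmt3b* (SE 0.052, adjusted p = 0.524 by edgeR) and 0.22 for *Tdg* (SE 0.40, adjusted p = 0.901). For *Uhrf1*, *Dnmt1*, *Dnmt3l* and *Dnmt3a* they were -0.03, 0.05, -0.06 and -0.00479, with SEs of 0.038 to 0.052. Without 4b7, *Tet1* was called at 1.91 (adjusted p = 0.000152), a value that set the low counts of 4a2 and 4a3 against the *Rps27-FLAG* clones.

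Other genes of the pathway were taken from 6 lists of 53 genes, of which 49 passed the filter. Between the lines, total RPFs of 0 of 49 were called in any pair. With the pool as a block 1 was called, *Idh2*, the mitochondrial isocitrate dehydrogenase that makes the α-ketoglutarate TET enzymes need, which was higher in *Rps27l-FLAG* than in *Rps27-FLAG* by 0.34 (adjusted p = 0.0472), against 1.36% of transcripts. Between IP and total RPFs without a clone term, 2 of 49 (4.08%) were called in each line, both lower, against 5.34% and 2.27% of transcripts that were lower. These were *Setd2*, which methylates the histone H3 lysine that DNMT3B reads in gene bodies, at -0.64 (adjusted p = 0.00629) and -0.56 (adjusted p = 0.0291), and *Zfp445*, a zinc finger protein of imprint protection, at -0.59 (adjusted p = 0.00316) and -0.38 (adjusted p = 0.0305). With the clone as a block, *Rps27-FLAG* had 7 of the 49 higher and 8 lower (30.6%, against 41.2% of transcripts), and *Rps27l-FLAG* had 5 higher and 9 lower (28.6%, against 31%).

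Counts of called members per list were small, and no difference between lists was tested. All values here are log2 fold changes with the clone as a block, *Rps27-FLAG* first. Among 13 tested genes of demethylation and base excision repair, 2 were higher and 0 lower in each line, against 18.3% and 22.9% of transcripts in *Rps27-FLAG* and 12% and 19% in *Rps27l-FLAG*, which are the shares to set beside each list. These were *Apex1*, the abasic site nuclease, at 0.15 and 0.13 and *Parp1*, a sensor of strand breaks, at 0.15 and 0.15. The list's median was 0.07 and 0.03, beside -0.01 and -0.03 over all transcripts. Among 9 partners of maintenance methylation, *Pclaf*, a PCNA-binding factor (0.29 and 0.23), and *Cdca7* (0.14 and 0.14) were higher, and *Hells*, the chromatin remodeler that CDCA7 activates (-0.13 and -0.10), was lower, in both lines. The median was 0.02 and 0.01. The *Hells* values became 0.02 and 0.03 with the length trend removed and *Pclaf* lost its calls, at 0.10 and 0.07, whereas *Cdca7* kept them, and the list had 4 and 3 higher and 0 lower.

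Among 9 methyl-CpG readers and imprint protectors, *Rps27-FLAG* had 2 higher and 2 lower, and *Rps27l-FLAG* had 1 higher and 2 lower. *Trim28*, the corepressor that ZFP57 recruits to imprinted sites, was higher in both (0.17 and 0.20), and *Mbd3* in *Rps27-FLAG* (0.13). *Zbtb38* (-0.67 and -0.51) and *Zfp445* (-0.58 and -0.38) were lower in both. With the length trend removed *Trim28* (0.33 and 0.34) and *Zfp445* (-0.39 and -0.21) kept their calls, whereas *Mbd3* (0.07) and, in *Rps27l-FLAG*, *Zbtb38* (-0.31, adjusted p = 0.083) lost theirs. Among 7 histone methylation partners, 0 were higher in either line, and *Setd2* (-0.65 and -0.55), *Setdb1* (-0.23 and -0.27) and *Nsd1* (-0.13 and -0.18) were lower in both and *Prdm14* in *Rps27l-FLAG* (-0.26). Their median was -0.05 and -0.18. With the length trend removed *Nsd1* was higher (0.30 and 0.16), *Setdb1* was at 0.03 and -0.06, *Setd2* was still lower but at -0.23 and -0.22, *Prdm14* in *Rps27l-FLAG* was at -0.19 (adjusted p = 0.116), and the list had 4 higher and 1 lower in each line, so that its direction turned.

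Among 5 tested TET partners and suppliers of cofactor, *Idh2* was lower in both lines (-0.24 and -0.11) and 0 were higher. With the length trend removed the list had 2 higher and 1 lower in *Rps27-FLAG*. In *Rps27l-FLAG* it then had 3 higher and 0 lower, with *Idh2* at -0.07 (adjusted p = 0.18). The list's median was above 0 both before (0.02 and 0.03) and after the removal (0.05 and 0.13). Among 6 genes of the S-adenosylmethionine cycle, *Mtr*, the methionine synthase, was lower in both lines (-0.13 and -0.10) and *Ahcyl1*, a relative of S-adenosylhomocysteine hydrolase, higher in *Rps27-FLAG* (0.15). *Mtr* turned to 0.12 and 0.11 with the length trend removed, and *Ahcyl1* in *Rps27-FLAG* was at 0.21. Across the 6 lists, that fit called 19 of 49 higher and 4 lower in *Rps27-FLAG*, against 18.4% and 13% of transcripts, and for *Rps27l-FLAG* 14 higher and 2 lower, against 14.7% and 8.04%. For the difference of the IP effects between the tagged lines, 0 of 49 genes of the 6 lists were called, against 0.565% of transcripts.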

How the data were processed

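Total and IP RPFs were sequenced from 9 mESC clones in 15 libraries. Per the labels and methods, the authors trimmed reads with cutadapt 2.4, removed duplicates by molecular identifier with UMI-tools 1.0.1, aligned with Bowtie2 2.3.4.3 to GRCm38 (mm10) transcripts, kept unique alignments and counted, by ribosomal A site, the fragments within each CDS after leaving out 15 codons at its start and 5 at its end. The deposited values are these raw counts per transcript, and 0 columns were left out. Here 21713 of 21727 transcripts were matched to GENCODE M21, another release than the authors'; 14 had no entry. Mitochondrially encoded transcripts (13) were dropped, CPM over 2 in at least 14 libraries was required (10085 transcripts, at least 98.7% of the counts of a library), and TMM factors were computed for IP and total libraries separately. Tests used edgeR 4.0.16 in R 4.3.3, with limma 3.58.1 and DESeq2 1.42.0 as alternatives, and 0.5 was added before log2 ratios. The tests were tested on simulated data. Figures used Python with matplotlib.

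Fits had the line as the term for total RPFs, the fraction for IP against total RPFs, and line, clone and fraction within line for the difference between lines. Libraries of IP and total RPFs with the same replicate number and line come from the same clone, and their residuals correlated (r = 0.483 to 0.798), so the replicate numbers pair them. Residuals of total libraries of 1 pool correlated with r = -0.167 to 0.719. Libraries of a group differed by chi-square values per degree of freedom of 1.78 to 10.3, and none is a copy of another.

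The 9 genes, the pathway and marker lists and the tests were chosen with earlier results of these data known. All 9 genes are given by level, fold changes are printed for those called with or without the replicate block, *Dnmt3l* and *Tet2* in total RPFs were added after their values were seen, and up to 4 called members are named per list, by size of the fold change. Candidates for likeness to *Tet1* had at least 100 counts over the 9 total libraries.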

Additional observations from a re-analysis of the deposited data

How the results depend on the processing

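In total RPFs, 0 of the tested genes other than *Tet1*, which was left out of this count, were called between lines under each alternative run. These runs included each clone left out in turn. For IP against total RPFs, the count of called genes changed from 0 to 6 in *Rps27-FLAG* and to 5 in *Rps27l-FLAG* with the replicate block, and to 6 and 5 with the replicate block and the CDS length trend removed. Without *Rps27-FLAG* replicate 1 (2b12) and without a block, 2 genes were called, *Tet1* and *Dnmt1*, so that leaving out clones gave 0 to 2 in *Rps27-FLAG* and 0 to 0 in *Rps27l-FLAG*. With the replicate block and each clone left out in turn, an alternative added after seeing the data, 6 to 6 and 4 to 5 were called. The 4 calls, without 4b7, included *Tet1* with its sign turned. For the difference between lines, leaving out clones gave 0 to 1, the call being *Tet1* without 4b7, and without the replicate block 0 were called.

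The sign turned with the replicate block and the CDS length trend removed for *Dnmt1* (0.16 and 0.15) and *Tet2* (0.21 and 0.061). It turned for *Tet1* in *Rps27l-FLAG* with voom and limma (0.60) and without 4b7, where leaving out clones gave -0.40 to 1.45 without the block and -0.38 to 1.504 with it. Of the other values of single genes under alternatives, 119 kept their sign and their side of the threshold, and 49 kept their sign and became called. The replicate block changed no other call of the 9 genes, with *Tet1* in total RPFs left out of this count. The causes were not tested. *Tet3*, *Tdg* and *Tet1* in the 4 low clones rest on 5 to 43 counts a library, which limits any ratio drawn from them.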

Other observations

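The transcripts next to *Tet1* on chromosome 10 (GRCm38), 3 on each side with at least 100 counts over the 9 total RPF libraries, were chosen after the *Tet1* values were seen and are given as values in total RPFs. *Ccar1* (chr10:62743928-62792231), which encodes a regulator of the cell cycle and apoptosis, was at 180 to 191 normalized CPM in clones 2b12, 4a2, 4a3 and 5a1 and at 185 to 227 in the other 5 clones. *Slc25a16*, a mitochondrial carrier (chr10:62920633-62946498), was at 6.64 to 7.28 and 7.40 to 9.86, and *Dna2*, a nuclease and helicase (chr10:62947026-62974185), at 98.4 to 114 and 107 to 122.7. *Ddx50*, an RNA helicase (chr10:62616015-62651218), was at 58.3 to 73.3 and 61.3 to 82.0, and *Rufy2* (chr10:62980242-63013955) at 18.6 to 22.8 and 14.2 to 18.9. *Stox1* (chr10:62659043-62726128) had the fewest footprints of the 6, at 0.617 to 1.1495 and 1.14 to 3.99. *Slc25a16* did not overlap between the clones, as was the case for 23.1% of tested transcripts, and the other 5 did.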
